A study of Homo sapiens with 24 samples.

Results

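Small nucleolar RNAs (snoRNAs) and the small Cajal body RNAs (scaRNAs) were described in HepG2 cells, an established hepatocellular carcinoma line, from total RNA-seq after removal of ribosomal RNA. Members were the gene symbols that begin with SNORA, SNORD or SCARNA followed by a digit and that reached at least 10 reads on the counted strand in any of the 24 libraries. This gave 192 members, of which 74 were SNORA, 99 were SNORD and 19 were SCARNA genes, out of 411 symbols of these families and 26475 gene symbols in all. Of the other family symbols, 117 were at 0 in every library and 102 had a highest count of 1 to 9. The members were thus selected on their measured read counts, so their presence is a description and not a result. Just inside the limit stood 23 members with a highest count of 10 to 12, and just outside it 22 symbols with a highest count of 8 or 9. A minimum of 10 reads was reached in every library by 99 members, in 1 library alone by 11 members, and only in libraries of 1 group by 12 members.

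The 8 groups, with 3 libraries each, were HepG2 cells given DMSO (the vehicle control), ABBV-075 at 50 nM, ABBV-744 at 50 nM, ABBV-744 at 500 nM, interferon gamma (IFNg), or IFNg together with each of those 3 inhibitor treatments. ABBV-075 is a pan-BET inhibitor that occupies both bromodomains of the BET proteins, chromatin readers that bind acetylated histones, and ABBV-744 is selective for the second bromodomain. All groups share 1 tumour line, and the labels give neither the IFNg dose nor an exposure time. The design lets each inhibitor treatment be set against its own control, DMSO or IFNg. Since nothing in the labels places the replicates in separate cultures, the p-values measure only the spread between these samples, which may be technical.

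Box C/D snoRNAs (the SNORD genes) guide 2′-O-methylation of ribosomal RNA, and box H/ACA snoRNAs (the SNORA genes) guide its pseudouridylation, while scaRNAs guide the same modifications on spliceosomal RNAs in Cajal bodies. Most human members are released from introns of host genes, many of which encode ribosomal proteins or are noncoding SNHG genes, whereas a few, U3 (SNORD3A), SNORD13, SNORD118 and SCARNA2, have promoters of their own. Each guide works inside a particle with 4 core proteins, fibrillarin (FBL), NOP56, NOP58 and SNU13 for box C/D and dyskerin (DKC1), NHP2, NOP10 and GAR1 for box H/ACA. U3 takes part in cleavage of the ribosomal RNA precursor rather than in guiding a modification.

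The members the results turn on are printed below from the hg38 genome at RefSeq GRCh38.p14 coordinates, with strand and host from GENCODE v44. Capitals mark CTGA (the D box) in the last 15 bases and TGATGA (the core of the C box) in the first 30 bases of SNORD members, and ACA in the last 8 bases of SNORA members. The motifs were searched on the RNA strand only. TGATGA stood in the first 30 bases of 62 of 87 SNORD members with a sequence (71.3%) and of 28.1% of 991 annotated human snoRNA and scaRNA genes. CTGA stood in the last 15 bases of 81 of 87 SNORD members (93.1%) and of 43.4% of the annotated genes. ACA stood in the last 8 bases of 68 of 74 SNORA members (91.9%) and of 39.8% of the annotated genes.

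SNORD3A (chr17:19188016-19188232, plus strand) was the most abundant member, and SNORA73A (chr1:28507365-28507571) and SNORA73B (chr1:28508558-28508762), both on the plus strand within SNHG3, came next. Their near identity means that reads that map to both SNORA73A and SNORA73B are left out of the counts, so their levels can be understated.
SNORD3A: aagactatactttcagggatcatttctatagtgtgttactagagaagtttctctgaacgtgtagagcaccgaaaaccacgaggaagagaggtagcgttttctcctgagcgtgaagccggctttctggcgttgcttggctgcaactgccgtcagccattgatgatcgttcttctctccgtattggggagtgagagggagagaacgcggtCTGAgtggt
SNORA73A: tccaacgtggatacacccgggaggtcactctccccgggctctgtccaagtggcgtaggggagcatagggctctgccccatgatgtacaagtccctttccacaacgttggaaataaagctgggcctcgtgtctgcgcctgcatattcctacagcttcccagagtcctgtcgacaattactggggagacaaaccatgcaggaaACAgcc
SNORA73B: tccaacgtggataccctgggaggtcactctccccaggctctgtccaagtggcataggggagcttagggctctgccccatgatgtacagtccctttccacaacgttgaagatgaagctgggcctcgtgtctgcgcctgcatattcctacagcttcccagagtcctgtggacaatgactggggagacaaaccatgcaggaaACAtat

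SNORD35A (chr19:49491175-49491260, plus strand, within RPL13A) and the copies SNORD116-20 (chr15:25087661-25087754) and SNORD116-21 (chr15:25088803-25088896), both on the plus strand within the span of SNHG14, are shown because they were lower with the inhibitors. Each of those SNORD116 copies is 98.9% identical to SNORD116-17. Reads that map to several copies are left out of the counts, so the levels of the copies can be understated.
SNORD35A: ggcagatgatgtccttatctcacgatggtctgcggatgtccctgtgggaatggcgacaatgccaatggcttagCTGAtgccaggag
SNORD116-20: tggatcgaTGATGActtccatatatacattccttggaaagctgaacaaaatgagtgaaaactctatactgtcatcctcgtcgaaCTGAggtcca
SNORD116-21: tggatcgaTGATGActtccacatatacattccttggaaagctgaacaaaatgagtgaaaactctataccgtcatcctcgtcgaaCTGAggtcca

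SNORD89 (chr2:101272936-101273049, minus strand, within RNF149), SNORA48 (chr17:7574713-7574847, plus strand, within EIF4A1) and SNORA78 (chr16:1965184-1965310, plus strand, within SNHG9) are shown because they were higher with IFNg and ABBV-075 than with IFNg. SNORA32 (chr11:93730979-93731099, minus strand, within TAF1D) is shown because it fell while neighbours in the same host rose. SNORA48, SNORA32, SNORA74A, SNORA10 and the SNORD116 copies other than SNORD116-21 were named after their values were seen.
SNORD89: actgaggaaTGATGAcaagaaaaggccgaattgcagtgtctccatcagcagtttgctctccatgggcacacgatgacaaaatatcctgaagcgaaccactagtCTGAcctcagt
SNORA48: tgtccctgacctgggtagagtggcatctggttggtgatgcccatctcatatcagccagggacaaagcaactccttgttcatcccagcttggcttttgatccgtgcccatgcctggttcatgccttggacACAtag
SNORA78: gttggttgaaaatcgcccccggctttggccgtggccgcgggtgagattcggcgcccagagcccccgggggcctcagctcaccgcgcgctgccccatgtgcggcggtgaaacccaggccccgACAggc
SNORA32: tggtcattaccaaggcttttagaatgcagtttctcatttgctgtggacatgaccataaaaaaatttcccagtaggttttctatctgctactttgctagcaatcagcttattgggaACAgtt

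The libraries held 2978982 to 4304103 reads assigned to genes, and 55.98% to 69.38% of input reads mapped to several places, which the counts leave out. Members took 2.56% to 4.25% of the gene counts. The summed level of the 8 hepatocyte markers was 16317 to 24414 CPM, reads per 1000000 counts of a TMM-scaled library total, against 0.276 to 7.09 CPM for the 6 markers of other cell types. HEXIM1, a gene that BET inhibition is known to raise, stood at 50.6 to 56.8 CPM with DMSO and at 137 to 151.9 CPM with ABBV-075. With ABBV-744 at 50 nM alone it stood at 60.3 to 68.0 CPM and did not pass (adjusted p = 0.0816, edgeR), nor did MYC, which BET inhibition is known to lower, at 86.8 to 101.8 CPM against 100.8 to 120.9 CPM with DMSO. With IFNg HEXIM1 stood at 44.8 to 49.3 CPM, and with IFNg and ABBV-744 at 50 nM at 38.7 to 55.5 CPM, so those groups overlapped, while MYC fell there by 0.64 on the log2 scale (adjusted p = 1.24e-06, edgeR). The labels were taken as given. IRF1, an interferon-induced gene, was at 10.9 to 19.1 CPM in the libraries without IFNg and at 195.1 to 252.3 CPM in those with it. In bulk RNA, fewer cells and less RNA per cell cannot be told apart.

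Levels spanned a wide range and U3 led. Divided by length, the mean level over all libraries was 71147 CPM per kilobase for SNORD3A, 21872 for SNORA73B, 19077 for SNORA73A, 7474 for SNORA63, 5806 for SNORD17 and 1984 for SCARNA2. SNORD3A alone gave 41.3% to 50.7% of the member counts. SNORA73A and SNORA73B (U17) act in processing of the ribosomal RNA precursor, and SCARNA2 is a Cajal body RNA with its own promoter. SNORD118 (U8), which also has its own promoter, was listed at 0 in every library and is not a member. The counts also leave out reads that cannot be assigned to a single gene, so a count of 0 does not show that the RNA was absent.

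SNORD3A stood at 16762, 14809 and 15339 CPM in the DMSO libraries and at 12520, 12122 and 17511 CPM with ABBV-075. It stood at 15075, 19276 and 17447 CPM with ABBV-744 at 50 nM and at 14841, 19007 and 14553 CPM at 500 nM. These groups overlapped, and the widest spread was within the inhibitor groups. With IFNg the values were 16277, 18153 and 15672 CPM, and with IFNg and ABBV-744 at 50 nM they were 12823, 11789 and 14228 CPM, with no overlap. With IFNg and ABBV-075 they were 13317, 16702 and 15955 CPM, and with IFNg and ABBV-744 at 500 nM 15286, 15289 and 15782 CPM. In order of group means the levels ran from 12947 ± 1224 CPM (SD, n = 3) with IFNg and ABBV-744 at 50 nM to 17266 ± 2107 CPM (SD, n = 3) with ABBV-744 at 50 nM alone. The libraries of each neighbouring pair of groups in that order overlapped.

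**Figure D1:**
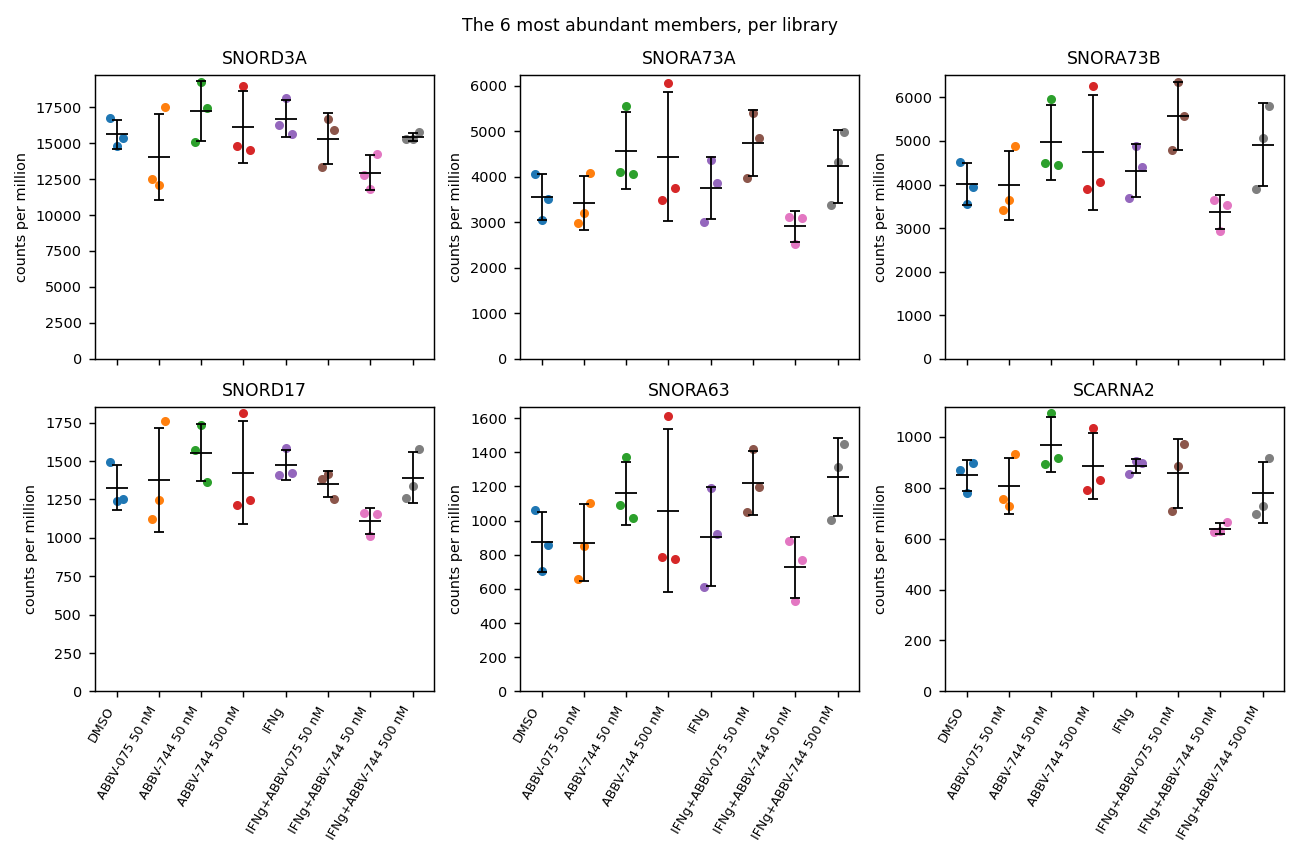
Level of 6 of the most abundant members (SNORD3A, SNORA73A, SNORA73B, SNORD17, SNORA63 and SCARNA2) in each library, in CPM on the vertical axis, by group on the horizontal axis; points are libraries and the black bar is the mean ± SD of 3. SNORD3A lies between 11789 and 19276 CPM, and its 3 libraries of IFNg and ABBV-744 at 50 nM lie below the 3 libraries of IFNg.

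ABBV-075 alone was followed by lower levels of some members and by a higher level of none. Of 144 members tested with edgeR's quasi-likelihood test against DMSO (adjusted p at most 0.05, Benjamini-Hochberg over all genes), 24 fell, 16.7%, where 19.6% of all genes fell. None rose, where 19.8% of all genes rose. The median log2 fold change was -0.24 over the members and 0.03 over all genes tested. With a log2 fold change of at least 1.5 in size as well, 2 members passed, 1.39%, against 4.28% of all genes. The 2 were SNORD1C and SNORD1A, box C/D RNAs from introns of SNHG16.

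SNORD1C had 19, 12 and 18 reads with DMSO and 6, 2 and 2 reads with ABBV-075, and SNORD1A had 10, 12 and 11 reads against 6, 1 and 3. The groups did not overlap but the counts are small. Of these 6 libraries only those of DMSO reached 10 reads of either RNA, so both passed the filter on low counts through the group where they are high. SNORD1C fell by 2.11 on the log2 scale (SE 0.46, adjusted p = 0.00372, edgeR) and SNORD1A fell by 1.53 (SE 0.47, adjusted p = 0.0217, edgeR). The call of SNORD1A was lost without ABBV-075 replicate 2 or without any 1 DMSO library. SNHG16 itself fell by 0.79 on the log2 scale (adjusted p = 0.000276, edgeR).

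SNORD35A, a box C/D guide for ribosomal RNA, stood at 25.5, 19.8 and 19.1 CPM with DMSO and at 9.41, 7.47 and 11.7 CPM with ABBV-075. All ABBV-075 libraries were below all DMSO libraries, and SNORD35A fell by 1.19 on the log2 scale (SE 0.22, adjusted p = 0.00128, edgeR). Its host RPL13A had a log2 fold change of -0.18 and did not pass (adjusted p = 0.246, edgeR). SNORD32A, from the same host, fell by 0.94 (adjusted p = 0.0275, edgeR).

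Copies of SNORD116, box C/D RNAs with no known ribosomal target, were also lower. SNORD116-21 stood at 18.5, 19.8 and 14.6 CPM with DMSO and at 8.20, 9.19 and 9.92 CPM with ABBV-075, without overlap, and fell by 0.98 on the log2 scale (SE 0.21, adjusted p = 0.00291, edgeR). SNORD116-13, SNORD116-14, SNORD116-18 and SNORD116-20 fell by 0.74, 0.84, 0.97 and 1.04 on the log2 scale. SNORA78 had 17, 14 and 15 reads with DMSO and 10, 6 and 4 with ABBV-075. Its log2 fold change was -1.04 (adjusted p = 0.0393, edgeR). The call was lost in 5 of the 6 fits that left out 1 library, all but that without ABBV-075 replicate 1. Only in the DMSO group did every library reach 10 reads, so SNORA78 passed the filter on low counts through the group where it is high.

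By length, 15 of 52 tested members of up to 110 bases fell with ABBV-075, 8 of 74 of 111 to 170 bases and 1 of 18 of over 170 bases, and the median log2 fold changes were -0.45, -0.22 and -0.13. These length limits were chosen after the values were seen. The members of up to 110 bases are all SNORD genes (88 members), and those of 111 to 170 bases are mostly SNORA genes (67 of 85). The count of 24 rested on single libraries: it was 7 without DMSO replicate 1, 12 without DMSO replicate 3, 9 without ABBV-075 replicate 2 and 64 without ABBV-075 replicate 3. DESeq2 called 7. Of 17 tested RNAs on the list of other small structured RNAs, 2 fell and none rose.

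Most genes of the core proteins were lower with ABBV-075. Of the box C/D core, FBL, NOP56 and SNU13 fell by 0.54, 0.37 and 0.39 on the log2 scale, while NOP58 had a log2 fold change of 0.21 and did not pass. Of the box H/ACA core, DKC1, NHP2 and GAR1 fell by 0.52, 0.72 and 0.93, and NOP10 had a log2 fold change of -0.28 (adjusted p = 0.0894, edgeR). Among the 11 assembly and transport factors 2 rose and 3 fell, among 3 tested Cajal body proteins 2 fell (COIL, the coilin gene, by 0.59 and NOLC1 by 0.31), and among the 4 U3 particle proteins 1 fell.

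With ABBV-744 at 50 nM alone, most of the called members were higher than with DMSO, but the share that rose was near that of all genes. Of 140 tested, 14 rose, 10%, where 8.81% of all genes rose, and 2 fell, 1.43%, where 10.1% of all genes fell. The median log2 fold change of the members was 0.15. SNORD15B, a box C/D RNA within RPS3, rose by 0.66 on the log2 scale (SE 0.12, adjusted p = 0.000457, edgeR), from 1012, 838 and 1009 reads to 1083, 1359 and 1074. SNORA38B rose by 0.72 and SNORD15A by 0.64, and SNORA73A, SNORA73B and SNORA63 rose by 0.38, 0.33 and 0.42. The 2 that fell were SNORD45C, by 1.29, and SNORD32A, by 0.97.

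No member of up to 110 bases rose with ABBV-744 at 50 nM, and 10 of 74 of 111 to 170 bases and 4 of 18 of over 170 bases did. Beside this, 5 of 17 tested RNAs on a list of other small structured RNAs rose and none fell, and 66.15% to 69.38% of reads mapped to several places, against 55.98% to 61.01% with DMSO. What part these have in the result was not tested. The count of 16 was 1 without DMSO replicate 2, 6 without DMSO replicate 3, 25 without DMSO replicate 1, 10 without ABBV-744 50 nM replicate 3 and 29 without ABBV-744 50 nM replicate 1. The call of SNORD15B held without each library, and those of SNORD45C, SNORD32A, SNORD15A, SNORA38B, SNORA73A, SNORA73B and SNORA63 were each lost without DMSO replicate 2.

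ABBV-744 at 500 nM alone gave 2 calls among 140 members, 1 in each direction. The higher calls were 0.714%, against 7.48% of all genes, and the lower calls also 0.714%, against 7.8%. SNORD15B rose by 0.57 on the log2 scale (adjusted p = 0.00691, edgeR), a call lost without DMSO replicate 2. SNORD35A fell by 0.60 (adjusted p = 0.0351, edgeR), to 14.0, 17.9 and 10.4 CPM, below all DMSO libraries, and its call was lost without any 1 library other than ABBV-744 500 nM replicate 2. Without ABBV-744 500 nM replicate 2, whose summed member level was the highest of its group, 18 members were called, without replicate 1 of that group 12, without DMSO replicate 1 5, and without DMSO replicate 2 or 3 1 each. DESeq2 called none, and 18 members (12.9%) had an unadjusted p under 0.05, against 29.2% of all genes.

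The doses and compounds were also set against each other. Between ABBV-744 at 500 nM and at 50 nM no member of 131 was called by edgeR or by DESeq2, where 0% of all genes were higher and 0.0274% lower. An unadjusted p under 0.05 was found for 6 members (4.58%), against 5.77% of all genes. The log2 difference of SNORD35A was -0.20, with a 95% interval from -0.66 to 0.26. At the matched dose of 50 nM the inhibitors were compared without IFNg, and the matched pair with IFNg was not tested. Without IFNg, ABBV-075 gave no member a higher level than ABBV-744, where 21.4% of all genes were higher. It gave 25 of 133 members a lower level, 18.8%, where 19.4% of all genes were lower. In this comparison 3 of 16 other small structured RNAs were lower and none higher, with a median log2 difference of -0.33 against -0.34 over the members. DESeq2 called 11 members, and with RNY1, RNU6ATAC, RNU11 and RNU12 as a covariate, chosen after the values were seen, 2 stayed called. The sum of these 4 RNAs was 259.8 to 337.1 CPM with ABBV-075 and 323.5 to 523.8 CPM with ABBV-744 at 50 nM. In that fit the covariate and the treatment can thus hardly be told apart.

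SNORD35A was lower with ABBV-075 than with ABBV-744 at 50 nM by a log2 difference of -0.76 (SE 0.22, adjusted p = 0.0188, edgeR), with 9.41, 7.47 and 11.7 CPM against 16.1, 16.7 and 15.2 CPM. SNORD116-21 was lower by a log2 difference of -0.81 (adjusted p = 0.0121, edgeR). SNORA5C, SNORA28 and SNORA38B had the lowest log2 differences among the called members, -1.10, -1.06 and -0.91. SNORD3A did not pass, with a log2 difference of -0.31 and a 95% interval from -0.70 to 0.08, which holds both a lower level and no difference. The count of 25 was 3 without ABBV-075 replicate 2 or without ABBV-744 50 nM replicate 2, 8 without ABBV-075 replicate 1 or ABBV-744 50 nM replicate 3, and 62 without ABBV-075 replicate 3. The calls of SNORD35A, SNORA28 and SNORA38B were lost without ABBV-075 replicate 2 or without ABBV-744 50 nM replicate 2, that of SNORA28 also without ABBV-075 replicate 1 or ABBV-744 50 nM replicate 3, that of SNORA38B also without ABBV-744 50 nM replicate 1, and that of SNORD116-21 without ABBV-744 50 nM replicate 3. The call of SNORA5C held without each library.

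IFNg alone moved no member past the threshold. None of 150 rose, where 2.76% of all genes rose, and none fell, where 0.695% fell. DESeq2 also called none, and 10 members (6.67%) had an unadjusted p under 0.05, against 14.1% of all genes. SNORA78 had 5, 8 and 3 reads with IFNg against 17, 14 and 15 with DMSO, without overlap, and its log2 fold change was -1.28 (adjusted p = 0.109, edgeR). Without 1 library, 0 to 3 members were called.

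In cells given IFNg, ABBV-075 was followed by changes in both directions. Against IFNg alone, 32 of 148 members rose, 21.6%, where 28.2% of all genes rose, and 30 fell, 20.3%, where 28.4% of all genes fell. With the fold limit of 1.5 on the log2 scale, 3 passed, 2.03%, against 6.17% of all genes. The comparison shares no library with that of ABBV-075 against DMSO. The direction differed between the length classes, whose limits were chosen after the values were seen. Of members of up to 110 bases 1 of 53 rose and 18 fell. Of 111 to 170 bases 29 of 77 rose and 3 fell, and of over 170 bases 2 of 18 rose and 9 fell. The median log2 fold changes of these classes were -0.47, 0.30 and -0.22. By family, 26 of 68 SNORA members rose and 6 fell, 5 of 63 SNORD rose and 18 fell, and 1 of 17 SCARNA rose and 6 fell. Length and family go together, and which of them the direction followed was not tested.

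**Figure D2:**
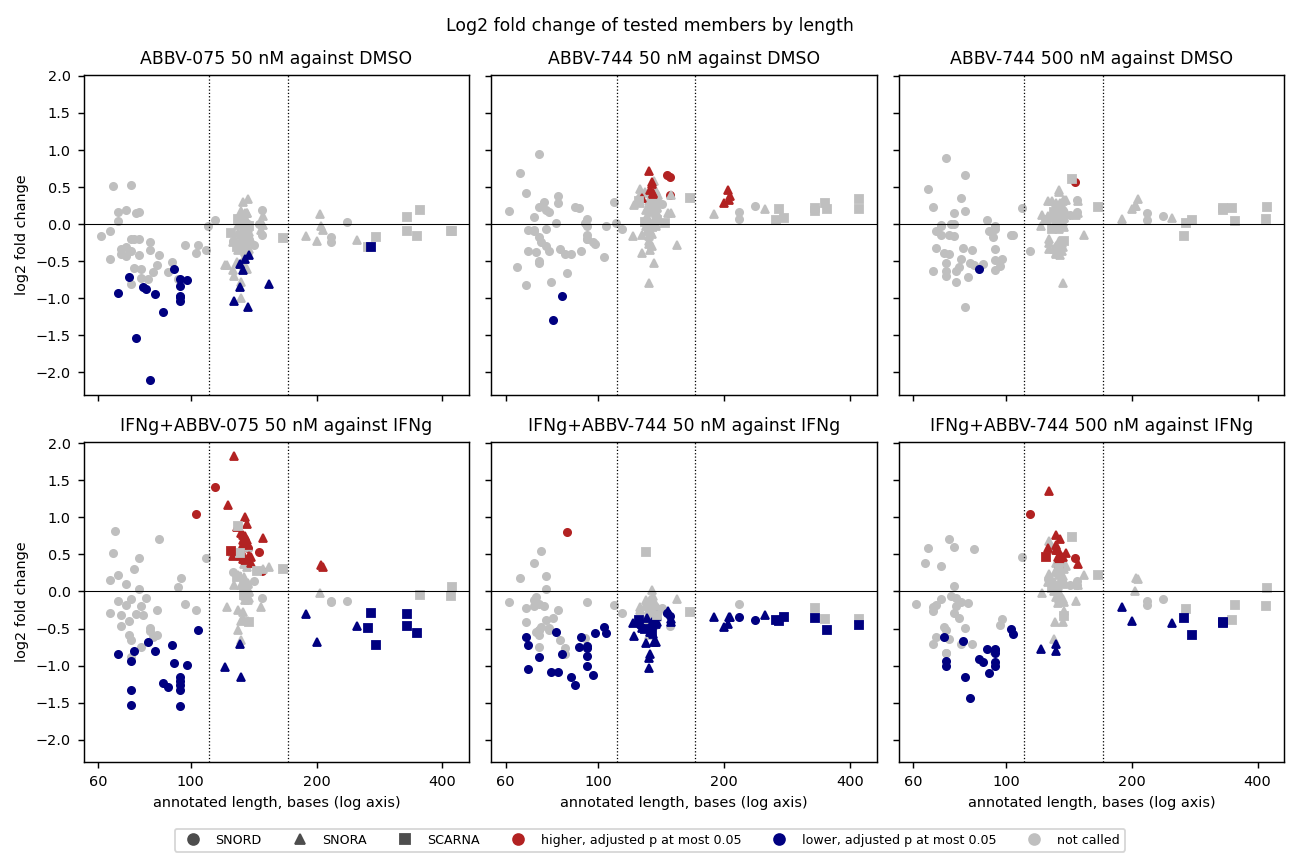
Log2 fold change of each tested member (vertical axis) against its length in bases (horizontal axis) in 6 inhibitor comparisons, those against DMSO and those against IFNg. With IFNg and ABBV-075, 29 of 77 members of 111 to 170 bases rose, whereas with IFNg and ABBV-744 at 50 nM 0 of 71 did.

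Among the members that rose, SNORD89, a box C/D RNA within RNF149, stood at 6.82, 16.2 and 11.8 CPM with IFNg and at 25.9, 34.0 and 33.2 CPM with IFNg and ABBV-075. The groups did not overlap, and SNORD89 rose by 1.41 on the log2 scale (SE 0.21, adjusted p = 3.18e-07, edgeR). Its host RNF149 had a log2 fold change of -0.07 (adjusted p = 0.572, edgeR). SNORA48, a box H/ACA RNA, stood at 138.1, 262.1 and 209.5 CPM with IFNg and at 324.9, 455.5 and 444.8 CPM with both, again without overlap. SNORA48 rose by 1.00 (SE 0.13, adjusted p = 3.14e-08, edgeR).

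SNORA78 had 5, 8 and 3 reads with IFNg and 19, 27 and 14 reads with IFNg and ABBV-075, and rose by 1.82 on the log2 scale (SE 0.41, adjusted p = 0.00024, edgeR). Its groups did not overlap, at counts of at most 27 reads. After SNORA78 and SNORD89, SNORA54 had the third highest log2 fold change, 1.17, at 1 to 13 reads, and lost its call without any 1 library other than IFNg replicate 2. SNORA54 and SNORA78 each had at least 10 reads in every library only of the group where they are high. Both thus passed the filter on low counts through that group. Among the abundant members SNORA73A rose by 0.33, SNORA73B by 0.36 and SNORA63 by 0.42. The calls of SNORA73A and SNORA63 were lost without IFNg replicate 1, where the log2 fold changes were 0.20 for both, and without IFNg+ABBV-075 50 nM replicate 2, where they were 0.23 and 0.30.

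Among the members that fell, SNORD116-21 stood at 18.6, 21.0 and 18.5 CPM with IFNg and at 7.96, 6.80 and 4.82 CPM with both, and fell by 1.55 on the log2 scale (SE 0.22, adjusted p = 2.3e-07, edgeR). SNORD116-13, SNORD116-14, SNORD116-18 and SNORD116-20 fell by 1.33, 1.26, 1.21 and 1.15. SNORD35A fell by 1.24 (SE 0.22, adjusted p = 1.06e-05, edgeR), from 24.8, 17.4 and 17.1 CPM to 7.71, 10.6 and 6.93 CPM. Each of these groups of libraries was apart from the IFNg libraries for SNORD116-21 and SNORD35A. SNORD102, within RPL21, fell by 1.53 and SNORD74 by 1.33.

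Of the 18 tested members of over 170 bases, 9 fell and 7 did not pass with ABBV-075 in IFNg-treated cells. SCARNA5 fell by 0.72 on the log2 scale (SE 0.09, adjusted p = 2.03e-08, edgeR), SNORA74A by 0.68, SNORA53 by 0.46 and SCARNA10 by 0.46. SNORD13, which has its own promoter and guides acetylation of ribosomal RNA, fell by 0.52, a call lost without any 1 library other than IFNg+ABBV-075 50 nM replicate 1. SCARNA2 had a log2 fold change of -0.06 with a 95% interval from -0.23 to 0.12, and SNORD3A one of -0.13 with an interval from -0.29 to 0.03.

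**Figure D3:**
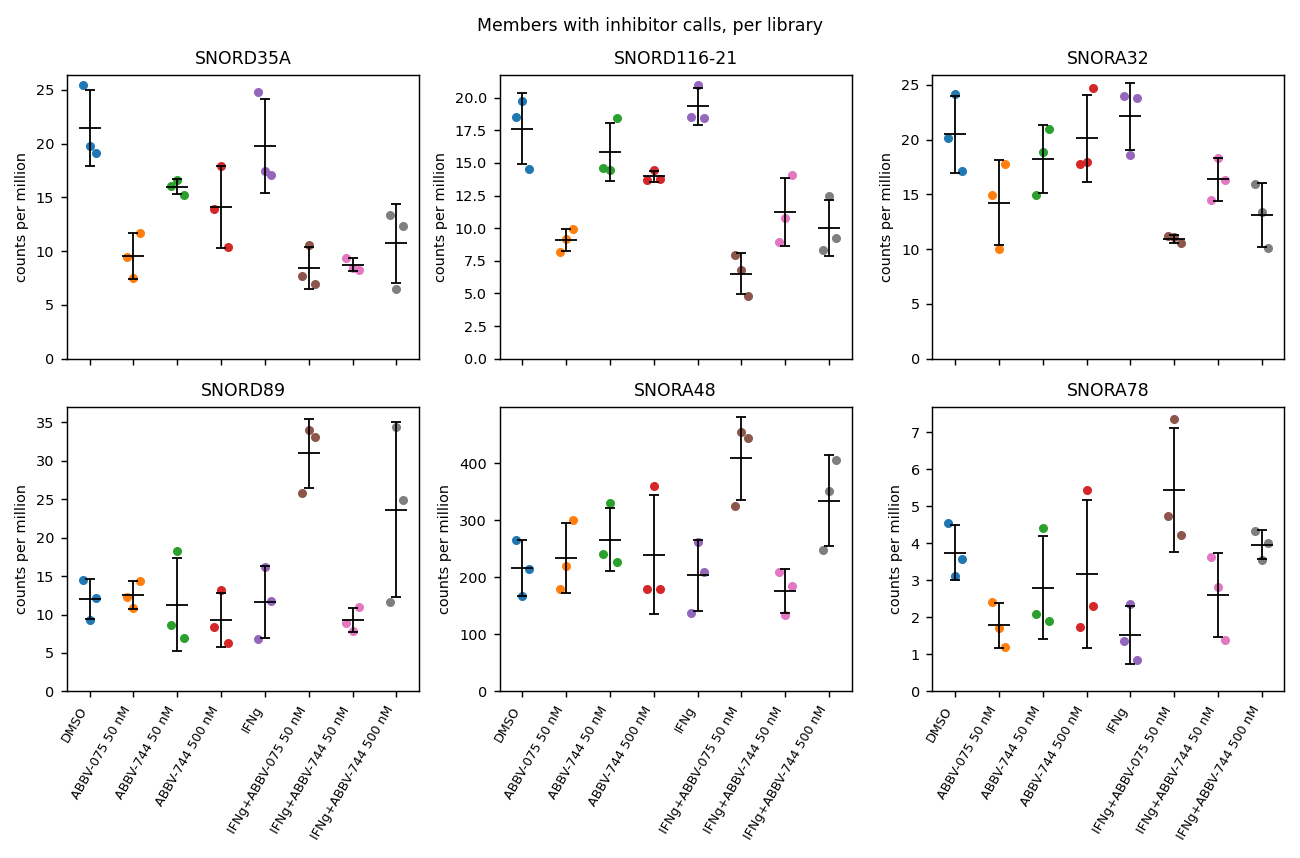
Level of SNORD35A, SNORD116-21, SNORA32, SNORD89, SNORA48 and SNORA78 in each library, in CPM on the vertical axis, by group on the horizontal axis; points are libraries and the black bar is the mean ± SD of 3. SNORD116-21 lies at 4.82 to 7.96 CPM with IFNg and ABBV-075 and at 18.5 to 21.0 CPM with IFNg, and SNORD89 lies at 25.9 to 34.0 CPM against 6.82 to 16.2 CPM.

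In this comparison 7 of the hosts tested held several called members. In 5 of them, ATG16L1, EIF4A2, RPL13A, SNHG3 and ZFAS1, the called members had 1 direction, and in 2, TAF1D and RPL21, they had both. TAF1D holds 7 of the tested members. With IFNg and ABBV-075 its SNORA32 fell by 1.02 on the log2 scale (adjusted p = 2.81e-05, edgeR), from 24.01, 18.6 and 23.8 CPM to 11.2, 11.2 and 10.6 CPM, while SNORA8 rose by 0.46 and SNORA18 by 0.48 and TAF1D itself rose by 0.53. The other 4, SNORA25, SNORA1, SNORD5 and SNORA40, had log2 fold changes of 0.09, 0.22, 0.31 and 0.09 and did not pass. The difference between SNORA32 and its neighbours was not tested.

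Across all hosts with a measured gene, 122 pairs of a member and its host were tested in this comparison, in 82 hosts. Of 48 called members, 28 had a fold change of the same sign as the host, 20 had a host called in the same direction, 12 a host called in the opposite direction and 16 a host that did not pass. Pearson's r between member and host log2 fold change was 0.21 over the 122 pairs, as a description only, since members of 1 host share its value and all pairs share the same 6 libraries. With ABBV-075 against DMSO r was 0.27 over 117 pairs, and of 17 called members 15 had the sign of the host, 4 with a called host. For IFNg and ABBV-744 at 50 nM against IFNg r was 0.34 over 113 pairs, and 37 of 50 called members had the sign of the host. All called members fell with ABBV-075 against DMSO, and all but 1 fell with IFNg and ABBV-744 at 50 nM. In those comparisons the same-sign counts thus mainly count hosts with a negative log2 fold change. The share of the same sign over all tested pairs was not counted in any comparison. EIF4A1, the host of SNORA48, SNORD10 and SNORA67, was not among the genes tested.

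**Figure D4:**
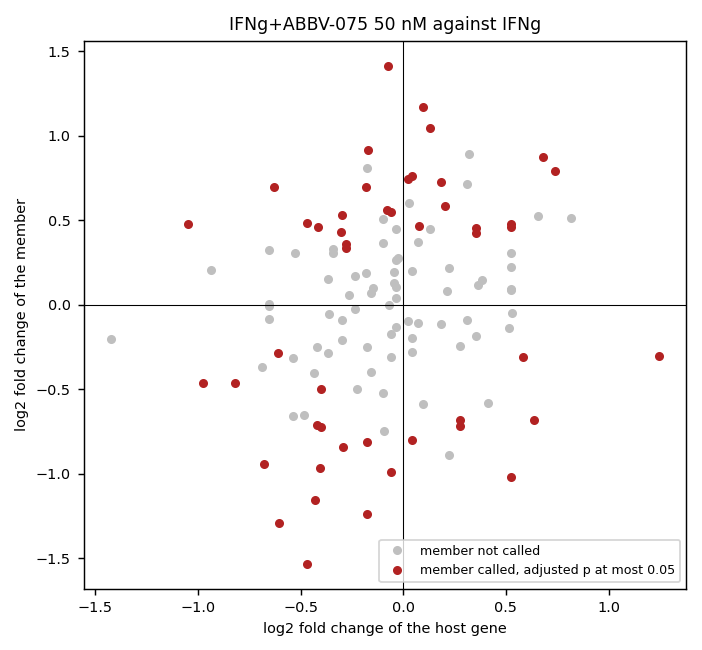
Log2 fold change of each member (vertical axis) against that of its host gene (horizontal axis), IFNg and ABBV-075 at 50 nM against IFNg; each point is 1 of 122 member and host pairs. SNORD89 lies at 1.41 with its host RNF149 at -0.07, and SNORA32 at -1.02 with its host TAF1D at 0.53.

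Some other small RNAs moved in the same libraries as the members of 111 to 170 bases. Of 18 tested RNAs on the list of other small structured RNAs, 7 rose and 3 fell with IFNg and ABBV-075, among them RNY1 (a Y RNA), RNU11, RNU12 and RNU6ATAC (minor spliceosome RNAs), which rose by 0.79, 0.72, 0.75 and 0.54 on the log2 scale. These 4 RNAs were chosen from the list after the values were seen and all rose here, and the rest of the list was not summed. The sum of these 4 RNAs ran from 190.4 to 569.5 CPM over the 24 libraries, and that of the members of 111 to 170 bases from 2761 to 7374 CPM. Within the groups, the library with the highest sum of the 4 RNAs also had the highest sum of these members in 7 of 8 groups, and the lowest in 7 of 8. For the members of over 170 bases other than SNORD3A these counts were 6 and 6, and for those of up to 110 bases, which summed to 315.6 to 544.1 CPM, 5 and 4.

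**Figure D5:**
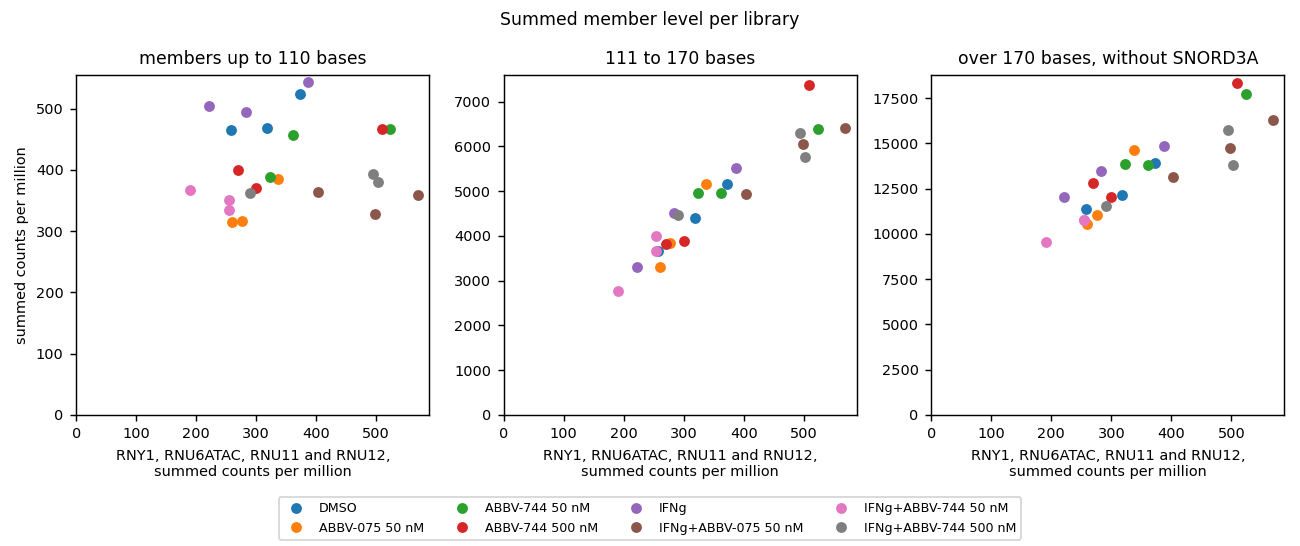
Summed level of the members of each length class (vertical axes, CPM) against the summed level of RNY1, RNU6ATAC, RNU11 and RNU12 (horizontal axis, CPM), 1 point per library, coloured by group. The members of 111 to 170 bases run from 2761 to 7374 CPM where the 4 other RNAs run from 190.4 to 569.5 CPM.

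With the level of these 4 RNAs as a covariate, a fit chosen after the values were seen, no member rose with IFNg and ABBV-075 and 31 fell. SNORD89, SNORA48 and SNORA78 then had log2 fold changes of 0.58, 0.23 and 0.99 and did not pass (adjusted p = 0.118, 0.201 and 0.248, edgeR). SNORA73A, SNORA73B, SNORA63 and SNORD10 turned to -0.18, -0.06, -0.32 and -0.35. SNORD116-21 stayed called at -1.60 and SNORD35A at -0.96, while SNORA32, at -0.75, did not pass (adjusted p = 0.0529, edgeR). With ABBV-075 against DMSO the same covariate left 22 calls, 1 higher and 21 lower, and SNORD35A at -1.11. The sum of the 4 RNAs was 221.3 to 387 CPM with IFNg and 403.2 to 569.5 CPM with IFNg and ABBV-075, without overlap, so in that fit the covariate and the treatment cannot be told apart, and it also uses up 1 of the few residual degrees of freedom. Without a single library, the higher calls with IFNg and ABBV-075 ranged from 13 without IFNg replicate 1, or 18 without IFNg+ABBV-075 50 nM replicate 2, upward, and the lower calls from 27 to 32.

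Given with IFNg, ABBV-744 at 50 nM was followed by lower levels of members from all length classes. Of 140 members 63 fell, 45%, where 24.3% of all genes fell, and 1 rose, 0.714%, where 27.4% rose. In the classes of up to 110, 111 to 170 and over 170 bases, 20 of 51, 29 of 71 and 14 of 18 fell, with median log2 fold changes of -0.55, -0.34 and -0.36. SNORD3A fell by 0.35 on the log2 scale (SE 0.07, adjusted p = 0.000126, edgeR), and SNORD17 by 0.39. SCARNA2 fell by 0.45 (SE 0.07, adjusted p = 2.11e-06, edgeR), from 854.2, 903.9 and 897.3 CPM to 625.1, 629.5 and 663.9 CPM, with no overlap.

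SNORD35A fell by 1.16 on the log2 scale with IFNg and ABBV-744 at 50 nM (adjusted p = 1.46e-05, edgeR), to 9.40, 8.48 and 8.29 CPM. SNORD35B fell by 1.26 and SNORD88A by 1.12. The 1 member that rose was SNORD45A, within RABGGTB, by 0.80 (adjusted p = 0.0369, edgeR), at 10 to 14 reads with IFNg and 15 to 27 with both, a call lost in 4 of the 6 fits without 1 library, namely without IFNg replicate 2 or 3 or IFNg+ABBV-744 50 nM replicate 1 or 2. SNORD89 and SNORA48 had log2 fold changes of -0.29 and -0.18 and did not pass. The call of SNORD88A was lost without IFNg replicate 3 or IFNg+ABBV-744 50 nM replicate 3. The SNORD3A, SCARNA2, SNORD17 and SNORD35A calls held without each library.

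In the same libraries 11 of 16 tested other small structured RNAs fell and none rose, and 57.55% to 59.55% of reads mapped to several places, against 58.27% to 66.38% with IFNg. With the 4 RNAs as a covariate 31 members fell and none rose. Without IFNg replicate 2 the count of 64 was 30, and DESeq2 called 23. The group was the only inhibitor group given with IFNg whose HEXIM1 values overlapped those of its control.

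With ABBV-744 at 500 nM and IFNg, the members that rose were all of 111 to 170 bases, and most of those that fell were shorter or longer. Of 141 members 17 rose, 12.1%, where 22.9% of all genes rose, and 27 fell, 19.1%, where 22.8% fell. Of the class of 111 to 170 bases 17 of 73 rose and 3 fell, of the shorter class 17 of 50 fell and of the longer class 7 of 18 fell. SNORD89 rose by 1.04 on the log2 scale (adjusted p = 0.00219, edgeR), to 11.7, 34.4 and 24.9 CPM, overlapping the IFNg libraries, and SNORA48 rose by 0.71 (adjusted p = 0.00022, edgeR). SNORA78 rose by 1.35 (adjusted p = 0.0103, edgeR), with 13, 12 and 13 reads. The call of SNORD89 was lost without IFNg+ABBV-744 500 nM replicate 2, and that of SNORA78 without IFNg replicate 3.

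SNORD32A had the lowest log2 fold change with IFNg and ABBV-744 at 500 nM, -1.44, with 33, 35 and 33 reads with IFNg against 9, 14 and 11. SNORD104 fell by 1.16 and SNORD14B, within RPS13, by 1.10. SNORD116-21 fell by 0.95 and SNORD35A by 0.91. SNORA63 rose by 0.46, a call lost without IFNg replicate 1. Of 18 other small structured RNAs 6 rose and 1 fell, and with the 4 RNAs as a covariate no member rose and 25 fell. The higher calls ran from 7 without IFNg replicate 1 to 36 without IFNg replicate 2.

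Of the 8 core protein genes, 7 fell in IFNg-treated cells with ABBV-075 and with ABBV-744 at 500 nM, and 4 with ABBV-744 at 50 nM. With ABBV-075, FBL, NOP56 and SNU13 fell by 0.69, 0.48 and 0.61 on the log2 scale, and all 4 box H/ACA genes fell, DKC1 by 0.83, NHP2 by 0.75, GAR1 by 0.87 and NOP10 by 0.40. With ABBV-744 at 500 nM the same 7 genes fell, by 0.34 (DKC1) to 0.63 (GAR1). With ABBV-744 at 50 nM, FBL, NOP56 and SNU13 fell by 0.46, 0.40 and 0.41, but of the box H/ACA genes only NHP2 passed, falling by 0.80. NOP58 rose with all 3, by 0.49 with ABBV-075, 0.80 with ABBV-744 at 50 nM and 0.80 with 500 nM. Those 3 comparisons share the IFNg libraries.

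An interaction term, fitted over the 12 libraries of each set of 4 groups, compared the effect of an inhibitor in the presence of IFNg with that in its absence. For ABBV-075 no member of 160 was called by edgeR or DESeq2, where 0.0173% of all genes were higher and 0.0173% lower, and 27 members (16.9%) had an unadjusted p under 0.05, against 6.72% of all genes. SNORA78 had an interaction of 2.84 on the log2 scale (SE 0.57, adjusted p = 0.107, edgeR), and SNORD89 one of 1.34 (adjusted p = 0.369, edgeR). Thus the opposite directions of SNORA78 with ABBV-075 with and without IFNg were not shown to differ after adjustment. Without ABBV-075 replicate 1 or 3, 4 or 5 members were called.

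The corresponding interactions of ABBV-744 were tested after values were seen. At 50 nM the interaction was called below 0 for 61 of 154 members, 39.6%, against 26.5% of all genes. It was called above 0 for 1 member, 0.649%, against 25% of all genes. A value below 0 is a lower effect of the inhibitor with IFNg than without it, not a lower level with IFNg. By length the calls below 0 were 11 of 59, 33 of 77 and 17 of 18. SNORD3A had an interaction of -0.53 on the log2 scale (SE 0.12, adjusted p = 0.000496, edgeR) and SCARNA2 one of -0.68 (SE 0.11, adjusted p = 1.27e-05, edgeR). Of 18 other small structured RNAs 12 were lower and none higher in this interaction, with a median of -0.67 on the log2 scale, against -0.55 over the members. With the 4 RNAs as a covariate 19 members were called below 0 and 2 above 0. Without that covariate, HEXIM1 had a log2 fold change of 0.09 with IFNg and ABBV-744 at 50 nM against IFNg and did not pass (adjusted p = 0.565, edgeR). The count of 62 was 40 without IFNg replicate 2. At 500 nM the interaction was called above 0 for 3 of 157 members, 1.91%, against 18.5% of all genes. It was called below 0 for 11, 7.01%, against 15% of all genes. SNORD89 had an interaction of 1.42 (adjusted p = 0.0109, edgeR), SNORA78 one of 1.63 (adjusted p = 0.0367, edgeR) and SCARNA5 one of -0.62 (adjusted p = 0.000244, edgeR). The count of 14 was 32 without ABBV-744 500 nM replicate 2 and 9 without DMSO replicate 3 or ABBV-744 500 nM replicate 3.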

How the data were processed

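The authors extracted total RNA, depleted ribosomal RNA, made directional libraries and sequenced them. Per the submitters' processing notes the tools were CASAVA 1.8.2, Trimmomatic 0.33, STAR 2.7.1 and DESeq2 on hg38. Each deposited file holds whole-number read counts per gene from STAR, unnormalized, with reads that map to several places left out. The counting annotation is not given in the sources used here. The reverse-strand column was used, since the library kit marks strand, and rows that name no gene were left out of library sizes.

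The main test was edgeR 4.0.16 (R 4.3.3) quasi-likelihood with TMM scaling and filterByExpr on the 6 libraries of the 2 groups compared, or the 12 of an interaction, adjusted over all genes tested by Benjamini-Hochberg, with a call at an adjusted p of at most 0.05. CPM are counts per 1000000 gene counts after TMM scaling over the 24 libraries. Tables and plots used Python 3.11.15, pandas 2.3.3, numpy 2.4.6 and matplotlib 3.10.9. Scripts were tested on simulated data. DESeq2 1.42.0, other scalings and filters, both strands together, 1 fit of all 24 libraries, a replicate block and leaving out each library were the alternatives, and a covariate of 4 other small RNAs was added after the data were seen.

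Members, gene lists and length limits were chosen with earlier results of these data known. Named members were SNORD3A, SNORA78, the 10 members with the highest mean log2 CPM, those with their own promoter, and in each comparison the 3 highest and 3 lowest log2 fold changes among called members with at least 10 counts in every library of 1 group. Of the members, 188 matched RefSeq by symbol and 4 by synonym, and 177 had a strand and sequence. The depth limits what members with few counts can show.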

Additional observations from a re-analysis of the deposited data

Results flagged for a closer look

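The effect of an inhibitor differed between cells with and without IFNg for 14 named members with ABBV-744 at 50 nM and for 8 with ABBV-744 at 500 nM, by an interaction test over 12 libraries (edgeR, adjusted p at most 0.05). Both interactions were tested after values were seen. At 50 nM the interaction was called above 0 for 0.649% of tested members and below 0 for 39.6%, against 25% and 26.5% of all genes. At 500 nM it was called above 0 for 1.91% of members and below 0 for 7.01%, against 18.5% and 15% of all genes. Of 18 tested other small structured RNAs, 12 were called below 0 and 0 above 0 at 50 nM. At 500 nM 2 were called below 0 and 0 above 0. HEXIM1 did not pass with IFNg and ABBV-744 at 50 nM against IFNg.

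At 50 nM, SNORA73A and SNORA73B, which act in ribosomal RNA processing, had interactions of -0.75 and -0.69 on the log2 scale, and SNORA63 had one of -0.75. Among the members of over 170 bases, SNORD3A stood at -0.53, SNORD17 at -0.66, SCARNA2 at -0.68, SCARNA5 at -0.46, SCARNA10 at -0.60 and SNORA53 at -0.55. SNORD10 stood at -0.75. Of the short box C/D members, SNORD68 stood at -1.49, SNORD104 at -1.48 and SNORD35B at -1.52, and SNORD45A stood at 1.43. SNORD68 had 6 to 10 reads with DMSO and 10 to 15 with ABBV-744 at 50 nM, and 11 to 15 reads with IFNg and 9 to 11 with both.

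At 500 nM, SNORA78 had an interaction of 1.63 and SNORD89 one of 1.42. SNORD104 stood at -1.80, SNORD68 at -1.39, SNORD14B at -0.98, SCARNA5 at -0.62, SCARNA10 at -0.61 and SNORA53 at -0.49. SNORD104 had 17 to 19 reads with DMSO and 18 to 31 with ABBV-744 at 500 nM, and 20 to 36 reads with IFNg and 9 to 14 with both.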

How the results depend on the processing

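Of the named members' values under alternatives, 4100 kept their direction and their side of the threshold, 305 kept the direction and lost the call, 111 gained one and 7 reversed. Depth limits the members with few reads, and the cause of each change was not tested. DESeq2 called 7 members with ABBV-075 and 7 with ABBV-744 at 50 nM against DMSO, 0 with ABBV-744 at 500 nM, 23 and 20 with ABBV-744 at 50 nM and 500 nM against IFNg, 11 between the inhibitors at 50 nM, and 35 and 7 in the ABBV-744 interactions at 50 nM and 500 nM. With no filter on low counts, 26 and 9 members were called with ABBV-744 at 50 nM and 500 nM against DMSO, 1 between its doses, 9 in the ABBV-075 interaction and 23 in that of ABBV-744 at 500 nM. Scaling by library size only gave 5 with ABBV-744 at 50 nM against DMSO and 33 in its interaction. With all 24 libraries in 1 fit, 2 and 1 were called with ABBV-744 at 50 nM and 500 nM against DMSO, 39 with it at 50 nM against IFNg and 39 in the interaction.

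With the 4 other small RNAs as covariate (chosen after seeing the data) the counts were 5 and 12 with ABBV-744 at 50 nM and 500 nM against DMSO, 31, 31 and 25 with ABBV-075, ABBV-744 at 50 nM and at 500 nM against IFNg, 2 between the inhibitors, and 21 and 32 in the ABBV-744 interactions. It turned SNORA73B to -0.064, SNORA73A to -0.18, SNORA63 to -0.32, SNORD10 to -0.35 and SNORD15B to -0.0069 with ABBV-075 against IFNg, and SNORD15B to -0.0053 with ABBV-744 at 500 nM against IFNg.

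Without 1 library, the counts ran from 7 to 64 with ABBV-075, 1 to 29 with ABBV-744 at 50 nM, 1 to 18 at 500 nM and 0 to 3 with IFNg, each against DMSO. They ran from 44 to 70 with ABBV-075, 30 to 78 with ABBV-744 at 50 nM and 33 to 58 at 500 nM against IFNg, 3 to 62 between the inhibitors, 0 to 1 between doses, and 0 to 5, 40 to 69 and 9 to 32 in the interactions. SNORA48 ran from -0.26 to 0.34 with ABBV-744 at 500 nM against DMSO.

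The replicate numbers were not treated as pairs, since in no comparison were the same-numbered correlations all over 0.1. Single correlations ran from -0.20 to 0.39, so this rule does not exclude pairing. With the replicate block, 10 members were called with ABBV-744 at 50 nM against DMSO and 3 between its doses. The other counts with the block, 19 with ABBV-075, 3 with ABBV-744 at 500 nM and 0 with IFNg against DMSO, 70, 68 and 54 against IFNg, 31 between the inhibitors and 0, 57 and 17 in the interactions, were within 1.5 times the main ones.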
